A study of Mus musculus with 7 samples.

Results

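Gene families whose products run vesicle traffic were described in a list of ATAC-seq peaks from T follicular helper (Tfh) cells: the Rab, Vps and sorting nexin (Snx) genes. Members were all protein-coding genes that the authors' deposited table names with Vps at the start, or with Rab or Snx followed by a digit. The rule found 48 peaks of 45 genes among 6395 listed peaks, of which 5202 belonged to 4663 protein-coding genes. Rab names held 26 peaks of 23 genes, Vps names 9 peaks of 9 genes and Snx names 13 peaks of 13 genes. The name alone chose the members, so that 5 of the 23 Rab names are regulators or binding partners of Rab proteins and not Rab proteins themselves.

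ATAC-seq tags open chromatin with a transposase. The cells came from spleens of B6/Sle1.Yaa mice, which carry the Sle1 locus and the Yaa mutation and are prone to lupus-like disease. All animals of both groups shared this genotype, and the labels give their age as 5 months. One group, of 4 samples, was given anti-IFNAR1, which binds a subunit of the receptor for type I interferons, and the other, of 3 samples, control anti-rat IgG, each at 2 injections a week for 4 weeks. The title of the series names IFNAR1 as the target, whereas the sample labels have IFNA1. Cells had been sorted as CD4+, CD44+, GITR-, PSGL-1 low, CXCR5 high and PD-1 high, and whether a sample came from 1 mouse or several is not given in the labels. The table is 1 comparison in 1 direction and lists sites where anti-IFNAR1 coverage exceeded control IgG. It holds no value for a single sample, so no spread between samples stands behind any value here, and members with lower coverage after anti-IFNAR1 could not be seen. An unlisted gene is therefore one to which the authors assigned no peak past their threshold in that direction. It may be open in both groups, closed in both, or more open under control IgG. It may also lie under a listed peak that was assigned to a neighbour.

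Rab proteins are small GTPases that mark membranes. In the GTP-bound state each recruits effectors that move, tether and fuse vesicles of 1 compartment, and exchange factors (GEFs) and GTPase-activating proteins (GAPs) switch it on and off. Vps genes are named after yeast mutants in vacuolar protein sorting. Many, but not all, encode subunits of tethering and sorting complexes, among them HOPS, CORVET, GARP, the retromer and ESCRT. Sorting nexins bind phosphoinositides of the endosome through a PX domain, and several bend the membrane or bring cargo to the retromer. In T cells this traffic recycles the T cell receptor, co-receptors and cytokine receptors between endosome and surface and carries cytokines to the synapse with the B cell.

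Most member peaks lay at gene starts, so the DNA just before 4 of these starts is shown first. The stretches were chosen to span the families and the motif patterns described further on. Each runs 5′ to 3′ on the strand of the gene over the 250 bases before its RefSeq start (GRCm38.p6, the same assembly as mm10). Capitals mark the E-box CACGTG, read by basic helix-loop-helix factors such as TFEB, MYC and USF, and the GC box GGGCGG or its complement CCGCCC, read by SP and KLF factors. Rab5a lies at chr17:53478984-53479233 on the plus strand, Rab23 at chr1:33719646-33719895 on the plus strand, Snx8 at chr5:140389309-140389558 on the minus strand and Vps37c at chr19:10688485-10688734 on the plus strand.
Rab5a: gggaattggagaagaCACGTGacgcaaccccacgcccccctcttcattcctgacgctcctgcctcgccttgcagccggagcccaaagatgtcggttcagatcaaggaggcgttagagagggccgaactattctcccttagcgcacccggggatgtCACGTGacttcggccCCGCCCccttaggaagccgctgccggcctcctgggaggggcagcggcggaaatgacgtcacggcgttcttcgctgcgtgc
Rab23: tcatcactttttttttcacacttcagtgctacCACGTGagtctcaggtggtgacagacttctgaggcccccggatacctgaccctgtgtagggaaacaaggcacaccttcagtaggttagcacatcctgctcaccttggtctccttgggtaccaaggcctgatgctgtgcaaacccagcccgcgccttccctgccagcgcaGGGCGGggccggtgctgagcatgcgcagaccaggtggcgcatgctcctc
Snx8: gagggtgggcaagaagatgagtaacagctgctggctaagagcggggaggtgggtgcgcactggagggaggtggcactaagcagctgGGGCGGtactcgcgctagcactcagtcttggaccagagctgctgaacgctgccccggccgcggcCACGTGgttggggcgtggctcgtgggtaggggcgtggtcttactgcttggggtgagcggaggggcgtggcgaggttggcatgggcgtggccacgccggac
Vps37c: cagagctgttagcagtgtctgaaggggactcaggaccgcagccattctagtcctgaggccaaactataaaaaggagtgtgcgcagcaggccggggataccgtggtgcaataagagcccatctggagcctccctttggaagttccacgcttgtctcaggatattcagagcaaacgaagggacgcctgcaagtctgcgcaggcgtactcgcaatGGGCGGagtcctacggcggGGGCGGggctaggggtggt
The Rab5a stretch held 2 E-boxes and 1 GC box, the Rab23 and Snx8 stretches 1 of each, and the Vps37c stretch 2 GC boxes and no E-box. Guanine and cytosine made up 64.0% of the bases for Rab5a, 58.8% for Rab23, 67.6% for Snx8 and 58.8% for Vps37c. The stretches are not the peaks themselves. The peak summit lay within the stretch at Rab5a (-150 bp), but after the start at Rab23 (57 bp), Snx8 (28 bp) and Vps37c (155 bp).

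Members with a listed peak made up a larger share of their families than protein-coding genes in general. RefSeq names 134 protein-coding genes that fit the rule, and 45 of them (33.6%) had a listed peak under the file's own names, beside 21.1% of all 21900 protein-coding genes (4615 genes). By family the share was 43.3% for Snx (13 of 30), 33.3% for Rab (23 of 69) and 25.7% for Vps (9 of 35). Genes that the file lists under older names brought in 2 more Vps genes, Vps35l (named 9030624J02Rik) and Vps26c (named Dscr3), for 47 of 134 (35.1%) in all and 11 of 35 (31.4%) for Vps. Among Rab names, 18 of 59 GTPases were listed (30.5%) and 5 of 10 other genes. The background includes genes closed in T cells. Of 8 housekeeping genes, 6 were listed, and whether genes of general cell upkeep are listed more often was not tested. No family's share was tested against the background, because the families were chosen with results of these data known.

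**Figure D1:**
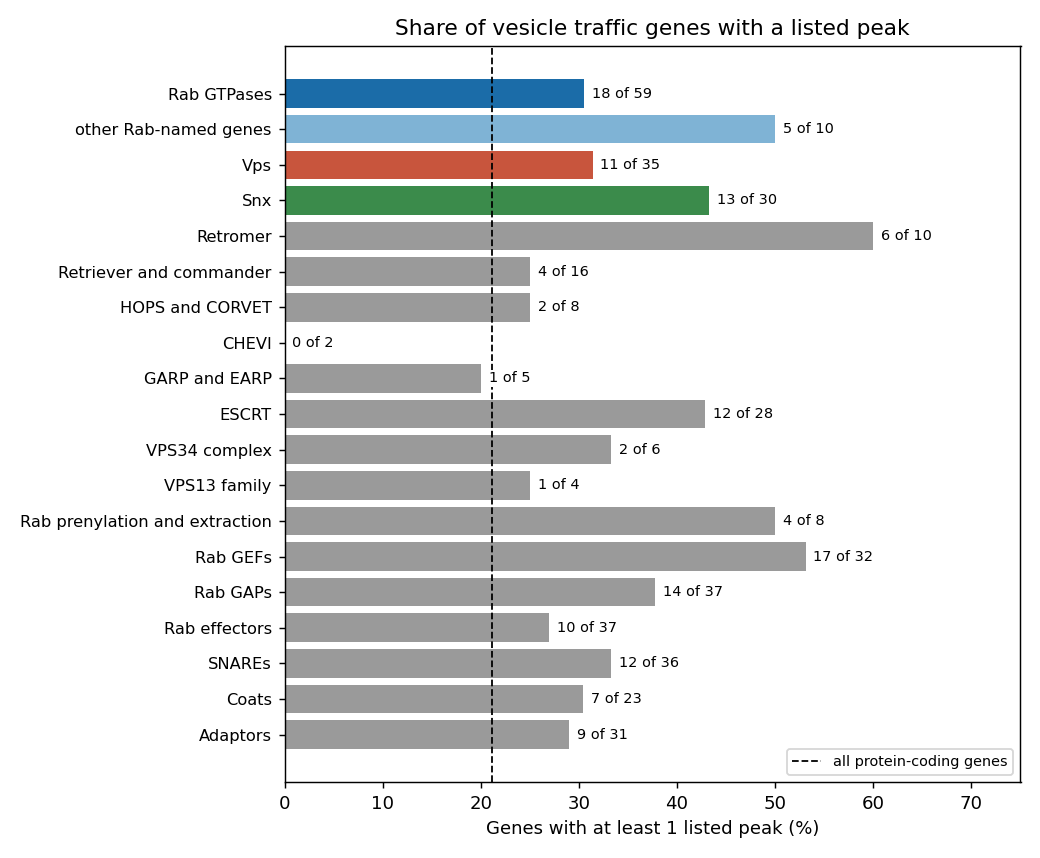
Share of protein-coding genes with at least 1 listed peak (horizontal axis, percent), for the members and for the lists of other traffic genes; the count of listed genes stands beside each bar and the dashed line marks the 21.1% of all protein-coding genes. The Snx bar, at 43.3%, reaches past those of the Rab GTPases and of Vps, the bar of the other Rab-named genes rests on 10 genes, and the Vps bar is drawn with the genes under older names (11 of 35).

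The peaks themselves were described by the authors' own measures. The pileup counts the fragments that overlap the summit of a peak, scaled by the caller to the shallower library, and the fold is this pileup over the local control background, each with 1 added. The q-value is the caller's p-value adjusted for the number of sites. Over the 48 member peaks the median fold in the authors' deposited table was 5.13, with a range of 3.29 to 9.37, beside 4.74 for all listed peaks and 4.78 for protein-coding peaks at starts. The median fold was 6.57 for Snx (3.78 to 8.45), 5.1 for Rab (3.29 to 8.89) and 4.9 for Vps (3.43 to 9.37). The fold of 12 of 13 Snx peaks lay above the median of the list, against 15 of 26 Rab peaks and 5 of 9 Vps peaks; Snx5, at 3.78, was the Snx peak below it. Over all listed peaks, 3163 of 6395 lay above that median. The 95% interval for the Snx median, from the ranks of its 13 values, was 4.88 to 7.88, and that of the Rab median was 4.44 to 6.26. The intervals overlap, but they treat listed peaks of 1 pooled comparison as independent draws. They describe how folds vary among listed peaks and do not measure differences between samples. The difference between families was not tested.

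Coverage did not set the families apart in the same way. The median pileup was 13.0 for Snx, 12.6 for Rab and 11.6 for Vps, beside 11.6 for all listed peaks and 13.0 for protein-coding peaks at starts. In fragments, before scaling, the member peaks held a median of 44, from 16 at Snx10 to 92 at Snx3. The control background under them had a median of 1.0, against 1.65 for all protein-coding peaks and 1.49 for the list. The higher median fold of the members thus stood beside a lower background, while their median pileup, 12.4, was close to the 12.2 of all protein-coding peaks.

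**Figure D2:**
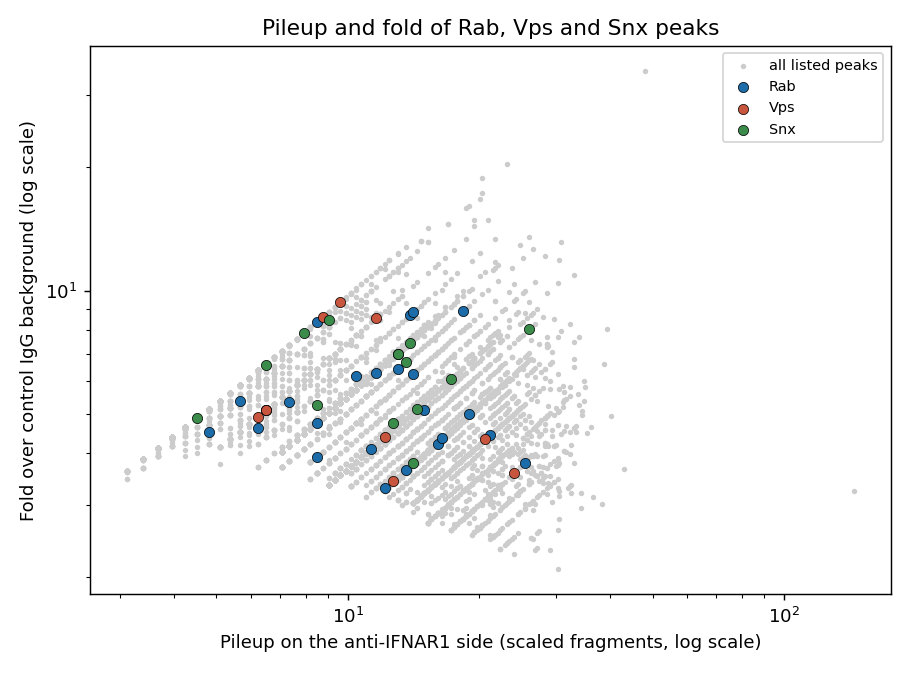
Authors' pileup (horizontal log axis, scaled fragments at the summit) against the authors' fold over the control background (vertical log axis) for the 48 member peaks in colour by family, over all listed peaks in grey. Among the coloured points Snx3 alone joins a pileup above 20 with a fold of 8.04, while Vps37c and Vps51 reach folds of 9.37 and 8.63 at pileups under 10.

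By section, 40 of the 48 member peaks (83.3%) lay at a transcription start site. In this file that section covers positions from -997 to 99 bp relative to the start of the transcript named for the peak. Distances to the start are given from that transcript throughout. The share at starts was 81.4% for all protein-coding peaks. All 13 Snx peaks lay there (100%), as did 8 of 9 Vps peaks (88.9%) and 19 of 26 Rab peaks (73.1%). The other 8 peaks were 7 of Rab genes and 1 of Vps13a. They were lower, with a median pileup of 6.5 against 13.0 for the members at starts and a median fold of 5.0 against 5.3. A lower pileup outside starts was also seen over all protein-coding peaks, with medians of 8.76 and 13.0. A start here may be that of a noncoding transcript. At Snx15 it is that of a processed transcript (peak at chromosome 19, 6127983 to 6128254) inside the RefSeq gene (6119399 to 6132415). Of the 40 member start peaks, 22 (55.0%) covered a RefSeq start of the gene itself, beside 46.6% of protein-coding start peaks that matched RefSeq. Starts were taken only from genes with a RefSeq promoter sequence, so 22 is a minimum.

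Among Rabs of the early endosome, Rab5 proteins direct fusion of early endosomes, and all 3 paralogues were listed. The Rab5a peak in the authors' deposited table reached a pileup of 21.20 (75 fragments) with a fold of 4.44, and the Rab5b peak 14.13 (50 fragments) with a fold of 6.26, both at starts. The Rab5c peak, 1738 bp from the start, lay in a 5′ UTR exon (chromosome 11, 100736204 to 100736478), with a pileup of 4.81 (17 fragments) and a fold of 4.52. It was the lowest pileup of any Rab peak. Rab22a and Rab21, which act on early endosomes and on integrin traffic, had folds of 6.42 at the start and 4.74 in intron 1 (chromosome 10, 115314289 to 115314973, 619 bp from the start). Rab20, a Rab of maturing phagosomes, had a fold of 5.38 at a pileup of 5.65. The paralogue Rab31, closest to Rab22a, was not listed, nor were Rab4a and Rab4b of fast recycling.

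Of the Rabs of recycling and secretion, Rab11 proteins mark the recycling endosome and Rab8 proteins carry cargo to the plasma membrane, and both members of each pair were listed. Rab11b had the highest pileup of the Rab peaks, 25.44 in the authors' deposited table (90 fragments), with a fold of only 3.78, since its control background was 6.0. Rab11a had 2 peaks: one at the start with a pileup of 12.16 and the lowest fold of any member, 3.29 (q = 0.0137, among the 3 largest q-values of the members), and one in a 5′ UTR exon 3044 bp away with a pileup of 6.5 and a fold of 5.1 (chromosome 9, 64734441 to 64734687). Rab8a had a pileup of 18.94 and a fold of 4.99. Rab8b had 2 peaks as well, one at the start (chromosome 9, 66919484 to 66920706) with a pileup of 14.13 and a fold of 8.86 (q = 6.04e-11), and one in intron 1, 36685 bp from the start (66882493 to 66883021), with 6.22 and 4.61. The Rab8 starts held 67 and 50 fragments, over backgrounds of 3.0 for Rab8a and 0.708 for Rab8b.

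Rab27a, which docks secretory lysosomes and granules in T cells, was the third gene with 2 peaks, one at -177 bp from its start (pileup 16.4, fold 4.35) and one in a 5′ UTR exon at 432 bp (pileup 6.5, fold 5.1; chromosome 9, 73045289 to 73045560), while Rab27b was not listed. Rab37, a Rab of exocytosis, had its peak in coding exon 3 (chromosome 11, 115157904 to 115158362), with a pileup of 10.46 and a fold of 6.2. The peak lay 3747 bp from the start of transcript Rab37-003, and the RefSeq gene begins further upstream, at 115091331. Of the Rab3 group of regulated secretion, Rab3a was listed (pileup 7.35, fold 5.33, at -704 bp from the start of transcript Rab3a-005) and Rab3b, Rab3c and Rab3d were not. Genes with 2 peaks or more were not particular to the families, since 438 protein-coding genes had them.

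Golgi and late endosome Rabs were split. Rab43, which acts at the Golgi, had the largest fold and the smallest q of the Rab peaks, 8.89 and 2.71e-12 in the authors' deposited table, and the widest member peak, 1543 bp (chromosome 6, 87810492 to 87812035, 65 fragments). Rab6a and Rab6b, of transport back through the Golgi, were both listed. The Rab6a peak lay at the start with a pileup of 14.98 and a fold of 5.12, and the Rab6b peak in intron 1, 22372 bp from the start (chromosome 9, 103134179 to 103134677), with 11.59 and 6.3. Rab9, which returns receptors from late endosomes to the Golgi, had a fold of 3.64, and Rab9b was not listed. Rab7, the main Rab of late endosomes and lysosomes, and Rab7b were not listed, and neither were Rab1a and Rab1b of transport from the endoplasmic reticulum to the Golgi. Rab23, known as an inhibitor of Hedgehog signalling, had a fold of 8.38 from a pileup of 8.48 (30 fragments) with no control fragment at the site.

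The 5 other Rab-named genes all had their peak at the start, with folds from 3.92 to 8.7. Rab3gap1 and Rab3gap2 encode both subunits of 1 enzyme, a GAP for Rab3 and a GEF for Rab18. They stood at opposite ends: Rab3gap1 had a fold of 8.7 (pileup 13.85, q = 8.7e-10) and Rab3gap2 a fold of 3.92 (pileup 8.48, q = 0.0148, the largest q of the members). Rab11fip1 and Rab11fip2 bind Rab11 and had folds of 7.0 and 4.21. Rab3ip, the exchange factor Rabin8 that acts on Rab8, had 4.1.

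**Figure D3:**
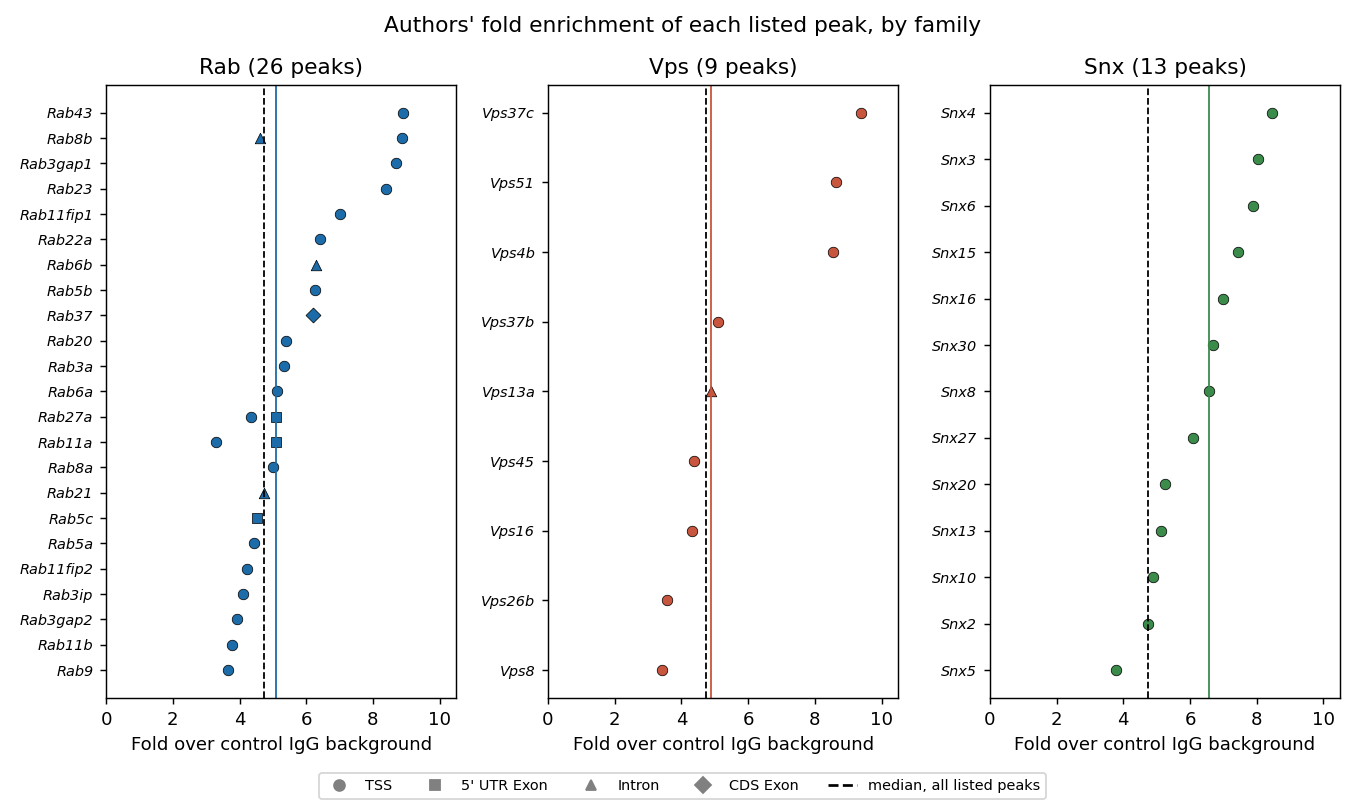
Authors' fold (horizontal axis) of each listed peak, 1 row a gene, with a panel for each family and the symbol giving the section; the solid line is the median of the family and the dashed line that of all 6395 listed peaks, 4.74. Of the Snx peaks 12 lie right of the dashed line, and the genes with a second symbol are Rab8b, Rab27a and Rab11a.

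Vps genes fell into complexes that were listed in part. Of ESCRT-I, which gathers ubiquitinated receptors on the endosome, Vps37c and Vps37b were listed, and Vps37a, Vps37d and Vps28 were not. Listed peaks assigned to the neighbours Cnot7 and Tonsl lay in or just before Vps37a (fold 4.06) and Vps28 (fold 4.76). Vps37c had the largest fold of all members, 9.37 in the authors' deposited table (chromosome 19, 10688487 to 10689382, pileup 9.61, 34 fragments, q = 1.41e-11), and Vps37b 5.1 at a pileup of 6.5. Vps4b, the ATPase that takes ESCRT-III apart, had 8.55 at a pileup of 11.59, and its paralogue Vps4a was not listed. The ESCRT-II genes Vps25 and Vps36 were not listed.

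Among tethering complexes, Vps16, a core subunit that HOPS and CORVET share, had a pileup of 20.64 (73 fragments) and a fold of 4.33. Vps8, of CORVET on early endosomes, had the lowest Vps fold, 3.43 (q = 0.0137). The other subunits Vps11, Vps18, Vps33a, Vps39 and Vps41 were not listed, nor was Vps33b of the CHEVI complex. Of GARP and EARP, which tether vesicles arriving at the Golgi and at recycling endosomes, the shared subunit Vps51 had a fold of 8.63 (chromosome 19, 6076805 to 6077507, pileup 8.76), and Vps50, Vps52, Vps53 and Vps54 were not listed. A listed peak assigned to the neighbour Rps18 lay in or just before Vps52 (fold 6.15). Vps45, a partner of syntaxins, had 4.39. Of the VPS13 lipid transfer proteins, Vps13a was listed with a peak in intron 1, 7097 bp from the start (chromosome 19, 16773438 to 16773726, fold 4.9), and Vps13b, Vps13c and Vps13d were not.

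Retromer genes joined Vps and Snx names. The retromer lifts cargo out of endosomes, with a trimer of VPS35, VPS26 and VPS29 and sorting nexins around it, and 6 of its 10 genes were listed. Of the trimer this was Vps26b only, with a high pileup and a low fold, 24.03 (85 fragments) and 3.58, over a background of 6.0. Vps35, Vps29 and the paralogue Vps26a were not listed. Of the sorting nexins of the complex, Snx2, Snx3, Snx5, Snx6 and Snx27 were listed and Snx1 was not. Snx3, which brings the Wnt carrier Wntless to the retromer, had the smallest q of the members (1.01e-14, rank 96 of 6395), 92 fragments and a fold of 8.04 (chromosome 10, 42501903 to 42503001, pileup 26.01). Snx27, whose PDZ domain picks receptors for return to the surface, had 17.24 and 6.08. The related pair Snx5 and Snx6, partners of Snx1 and Snx2, had unlike values: Snx6 had a fold of 7.88 from 28 fragments with none in control at the site, and Snx5 3.78 from 50 fragments over a background of 3.0. Snx32, the remaining gene of that group, was not listed.

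The other Snx peaks ran from 4.88 to 8.45 in fold. Snx4, of recycling and autophagy, had the largest, 8.45 (chromosome 16, 33250949 to 33251901, pileup 9.05, 32 fragments), and its partner Snx30 had 6.68. Snx15 and Snx16, both endosomal, had 7.43 and 7.0 with the same q of 4.13e-08. Snx8 had 6.57, Snx13 5.14 and Snx10, of osteoclast and lysosome function, 4.88 at the lowest pileup of all members, 4.52 (16 fragments). Snx20, which binds the PSGL-1 tail, had 5.26; the sort used surface PSGL-1. Snx9, Snx17 and Snx18 were not listed.

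High folds came in different kinds of peaks. The control background is the largest of the control coverage at the site, in a 1 kb window, in a 10 kb window and over the genome, the last equal to 0.132 here. In 20 of the 48 member peaks no control fragment was counted at the site (10 Rab, 5 Vps and 5 Snx). The background of Vps37c, Vps51, Snx6, Rab23 and Snx10 was the genome rate itself, so each of these folds is set by 16 to 34 fragments on the anti-IFNAR1 side alone. At Snx3 the background, 2.36, came from 10 control fragments in the 1 kb window, and at Rab43, 1.18 from 5. The caller takes that background as known. An exact one-sided conditional binomial test with counting error on both sides was therefore run on all peaks, taking as control fragments at a site the highest number that its background permits. A peak was kept where its p did not exceed 6.9e-05, the largest caller p in the list.

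In this exact test 13 of the 48 member peaks (27.1%) were kept, beside 20.9% of all listed peaks and 22.3% of protein-coding peaks. At starts it was 32.5% of member peaks, beside 25.6% of protein-coding peaks. By family it was 3 of 9 Vps peaks (33.3%), 7 of 26 Rab peaks (26.9%) and 3 of 13 Snx peaks (23.1%), so Snx was not highest here. The 13 kept were the start peaks of Rab5a, Rab5b, Rab8a, Rab8b, Rab11b, Rab43, Rab3gap1, Vps4b, Vps16, Vps26b, Snx3, Snx15 and Snx27. As genes these are 13 of the 45 listed members (28.9%), beside 24.5% of listed protein-coding genes at 1 peak a gene. Over all genes of the families, listed or not and older names included, it was 15 of 134 (11.2%), beside 5.2% of all protein-coding genes. No member peak outside a start was kept, and Vps37c, Vps51 and Snx4 were not: with no control fragment, 39 fragments on the anti-IFNAR1 side are needed, and these had 34, 31 and 32. At Snx3 the depth-scaled ratio of fragments was 13.0 (exact 95% interval 3.5 to 109, exact p = 2.59e-08) and at Rab43 18.4 (3.18 to 737). Starts with 4 to 6 control fragments at the site gave smaller ratios with narrower intervals than these: 4.24 at Rab11b (1.87 to 11.9), 5.3 at Rab5a (lower bound 1.99), 5.16 at Vps16 (1.93 to 19.4) and 4.0 at Vps26b (1.77 to 11.2). Paralogues with unlike folds had overlapping intervals: 2.07 to 31.4 at Rab8a and 3.69 upward at Rab8b, and 1.52 to 23.6 at Snx5 and 2.01 upward at Snx6. The same held for the subunits Rab3gap1 (3.62 upward) and Rab3gap2 (1.41 to 346). These intervals cover counting error of pooled fragments only and not differences between mice, and fragments copied by PCR are counted as if they were separate molecules. The lower bound lay above 1 for all 48 peaks, a property that the choice of listed peaks favours, so it is given as a description.

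**Figure D4:**
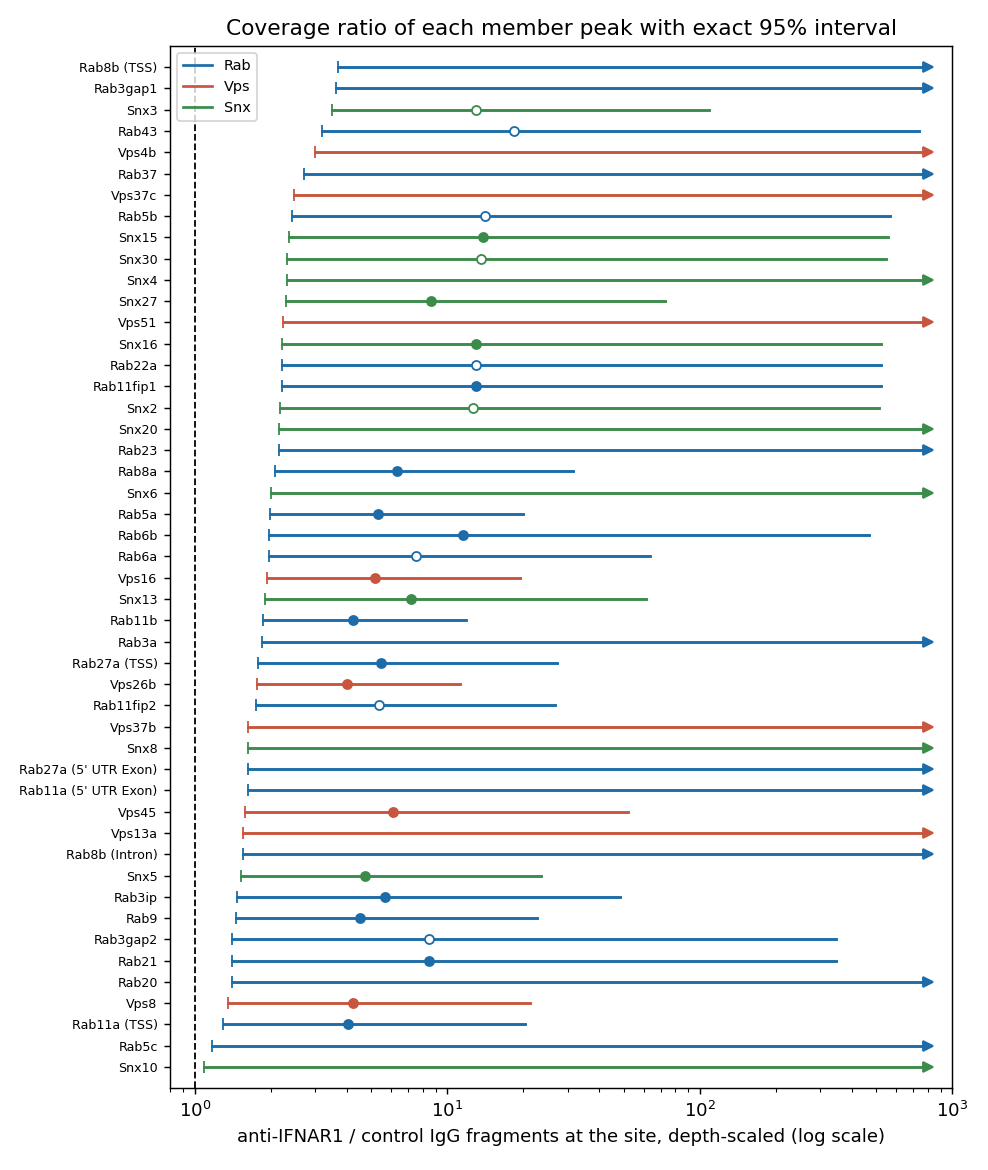
Depth-scaled ratio of anti-IFNAR1 to control fragments at each of the 48 member peaks (horizontal log axis) with exact 95% intervals, coloured by family; filled circles have a known number of control fragments at the site, open circles use the highest number the background permits, and lines with no circle have 0 control fragments, so that only the lower bound exists. Rab11b and Vps26b, at 4.24 and 4.0, have the shortest intervals.

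With other ways of counting, the joint share of the families was again above that of all genes. At a q of at most 0.01, 42 member genes remained, beside 18.1% of all protein-coding genes. Only peaks at starts gave 40 member genes, beside 18.5%. A pileup of at least 20 left 5 (Rab5a, Rab11b, Snx3, Vps16 and Vps26b), beside 3.21%. The exact test with the control window that the caller used kept 35 member genes, beside 14.6%. Counting any listed peak within the gene or in the 1 kb before it gave 52 of the 134 family genes (38.8%), beside 25.1%. That count gave 15 Vps genes, 25 Rab genes and 12 Snx genes. The 1 kb was added only where a RefSeq promoter sequence gave the strand, for 99 of the 134 family genes. All counts of this kind are therefore minimums, and Snx20, with its own peak at -188 bp, was missed. In shares of family genes, older names included, the other counts were 32.8% at the stricter q, 31.3% at starts, 5.22% at the higher pileup (Rab 2.9%, below the share of all genes) and 27.6% with the window test. These shares are not independent of each other, since they reuse the same peaks.

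Other genes of vesicle traffic, from 15 lists written from textbook knowledge with earlier results of these data known, were listed about as often as the families. Over the 282 genes of the lists, 101 had a listed peak (35.8%), with a median fold of 4.71. Outside the Rab, Vps and Snx names it was 81 of 234 (34.6%), with a median fold of 4.7, close to the 4.74 of all listed peaks. Of the 15 lists, 13 had a share above 21.1%. The Snx median of 6.57 was larger than that of 13 of the 14 lists that had a peak; the other, GARP and EARP, rested on Vps51 alone.

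Among regulators of Rab proteins, 17 of 32 GEF genes were listed, led by Dennd6b (fold 6.47, q = 7.83e-11), Rab3gap1 and Rabgef1, the exchange factor of Rab5 (7.0). Of the GAP genes 14 of 37 were listed, led by Rabgap1l (5.93), Tbc1d1 (5.57) and Tbc1d9b (4.69). Of the effectors 10 of 37 were listed, led by Eea1, the tether that binds Rab5 (6.94), Rab11fip1 (7.0) and Fyco1, which links Rab7 to kinesin (4.62). Of genes for prenylation and extraction of Rab proteins 4 of 8 were listed, with Rabac1 at 7.68 and Rabif at 7.84 with pileups of 22.05 and 19.79.

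ESCRT had 12 of 28 genes listed, led by Vps37c, Vps4b and Tsg101 (7.67), the ESCRT-I subunit that binds ubiquitin; 8 of the 12, 7 Chmp genes and Ist1, encode ESCRT-III proteins, with Chmp3 at 5.91. The retriever and commander genes, a retromer-like recycling route, had 4 of 16 listed, led by the older-named Vps35l (9.35) and Vps26c (3.96) and by Commd1 (5.38). Of the VPS34 complex, which makes the lipid that PX domains bind, Uvrag (4.07) and Pik3c3 (4.38) were listed of 6. SNAREs had 12 of 36, led by Stx17 of autophagosome fusion (9.87), Vamp3 (5.77) and Stx6 (5.7). Coat genes had 7 of 23, led by the clathrin light chain Clta (9.96), Sar1a (6.62) and Sec24b (6.87), with none of the 9 COPI genes from Copa to Arcn1 listed. Adaptor genes had 9 of 31, led by Ap3m2 (4.95), Ap5b1 (7.02) and Gga3 (5.04).

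Start regions of the members were rich in guanine and cytosine, as those of listed genes were in general. RefSeq promoter windows, from 250 bases before to 50 after a start, were found for 99 of the 134 family genes (127 windows). A listed peak of the same gene overlapped 33 of them, from 29 genes. Their median share of guanine and cytosine was 65.3%, beside 63.3% for 3098 windows under a listed peak of any protein-coding gene, 60.8% for 88 family windows with no listed peak and 56.3% for all 21263 windows. By family it was 69.3% for Snx (9 windows), 65.3% for Rab (17) and 61.0% for Vps (7).

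The GC box was found on either strand in 24 of the 33 windows (72.7%), beside 73.9% of windows under any listed peak, 69.3% of family windows with none and 46.2% of all windows. The E-box CACGTG was found in 7 of the 33 (21.2%), of Rab5a, Rab20, Rab23, Rab3gap2, Snx5, Snx8 and Vps16, beside 10.7%, 10.2% and 7.84%. A window counted as under a peak where any base overlapped, so a motif in it may lie outside the peak. The E-boxes of Rab23 and Rab3gap2 did so, lying before their peaks, which begin at 33719817 and 185204153 on chromosome 1. Matches to 6 further motifs were few or near the share in listed windows: CCAAT of NFY in 11 (33.3%, beside 39.8%), CCGGAAG of ETS factors in 4 (12.1%, beside 19.4%), TGACGTCA of CREB in 1 (3.03%, beside 3.87%), the long YY1 site that starts with AAGATGG in 3 (9.09%, beside 1.78%), and the NRF1 site, a palindrome with GCGC at both ends, in none, beside 2.61%. The interferon response form of GAAA, 2 bases of any kind and GAAA was in 1 of 33 (3.03%), beside 2.29% of listed windows and 3.35% of all. No motif in this set contains another, and both strands were read for each. A match says only that the letters are there, and with 33 windows each one moves a share by several percentage points.

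A start peak may belong to a neighbour. In 3 of the 40 member start peaks (7.5%, beside 6.51% of protein-coding start peaks that matched RefSeq) the peak also covered the start of another gene: Mrpl48 beside Rab6a, Mgme1 beside Snx5 and Pced1a beside Vps16. For these 3 the coverage cannot be assigned to 1 of both genes. Promoter windows gave starts for 17492 of the 21900 protein-coding genes, so 3 is a minimum. Among cell type markers, 10 of 14 Tfh and T cell genes had a listed peak. It was 0 of 8 for B cell genes and 0 of 8 for genes of CD8 T and NK cells. Of 8 myeloid genes 2 were listed, Cebpa (fold 5.41) and Cd14 (4.13). Cd3g, Cxcr5, Icos and Il21 had no listed peak. These marker counts cover sites higher under anti-IFNAR1 and not all open sites, so they cannot check the sort. In such bulk libraries more cells with an open site and a more open site per cell cannot be told apart. No measure of signal over background per library is given either, so whether this differed between the groups was not tested.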

How the data were processed

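ATAC-seq libraries came from 7 samples, 4 after anti-IFNAR1 and 3 after control IgG, grouped by the treatment label. The submitters' processing notes name the tools MACS2 2.1.0.20150420, bedtools, DESeq2, DiffBind 2.0.7 and BWA 0.7.9a and the build mm10; the role of each, the handling of duplicates and any shift of cut sites are not given in the sources used here. What the authors deposited is a peak list in the MACS2 layout. Its peak names give IFN against Ig treatment, from which the direction was read, and which libraries were pooled on each side is not stated. Per the file headers, the authors' caller gave each peak a signal (the pileup) and a ratio (the fold over the control background). The authors' caller also gave −log10 p and −log10 q, deposited in 2 columns with damaged headers. They were recognised by their place and values: computing −log10 p anew with a Poisson tail gave at most 0.000125 of difference. The q threshold of the list is 0.05. Peak positions are those of the file.

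The pileup of each peak was a whole multiple of 0.283 (tolerance 0.005), the factor that scaled down the anti-IFNAR1 coverage, so fragments were recovered with a depth ratio of 3.54; groups of 4 and 3 equally deep samples would give 1.33. Depth per sample is unknown. The background followed from the fold with a pseudocount of 1, and its source from a fragment length of 236 bp. In the exact test the control fragments at a site are an upper limit wherever the background came from a wider window, so the number kept is a minimum. With the caller's window, peaks at the genome rate had a Poisson test without control noise. These calculations were tested on simulated data. Intervals for medians are from order statistics.

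Genes were matched to RefSeq (GRCm38.p6) by symbol, and all 45 member genes matched; 1 list entry, Stx10, did not. Promoter sequences are RefSeq's. The members and all lists were chosen with earlier results of these data known, and no list was tested. Genes are named by a rule: the 5 smallest q per family, every peak outside a start, genes with 2 peaks, the 3 largest q, the extremes of pileup and fold, subunits of the listed complexes, paralogue groups and the 3 smallest q of each related list, of which 1 gene is not reported here; other members are named to account for each. The design had allowed for values per sample, and no column carries a sample, so no model was fitted over samples. Python 3.11.15 was used with numpy 2.4.6, pandas 2.3.3, scipy 1.17.1 and matplotlib 3.10.9.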

Additional observations from a re-analysis of the deposited data

How the results depend on the processing

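Of the values recomputed under other settings, 60 stayed within 1.5 times (counts) or within their interval and 26 did not. This tally does not measure robustness, because some of its outcomes were fixed in advance. All Snx peaks lay at starts with 1 peak a gene, and the E-box reads the same on both strands, so these values could not change. A minimum pileup must in turn raise a median pileup. With a pileup of at least 20 instead of no minimum, the list fell from 6395 to 797 peaks, member peaks from 48 to 5 and listed members from 45 to 5 (Rab 2, Vps 2, Snx 1). The median fold became 4.33 for all members, 4.11 for Rab and 8.04 for Snx (Snx3 alone), the median pileup 24.0 for all members, 23.3 for Rab, 22.3 for Vps and 26.0 for Snx, the share at starts 100% for all members, Rab and Vps, and the related genes listed fell from 101 to 15. The exact test at the site left 1335 peaks, 13 member peaks and 13 members (Rab 7, Vps 3, Snx 3), by construction a minimum. Going from the control window of the caller to control fragments at the site, known or at their limit, took the member peaks kept from 36 to 13. Counting any peak in the gene, or in the 1 kb before it where the strand was known, gave 15 Vps genes. Read on the given strand alone, the GC box was in 54.5% of member windows. The older gene names, and the exact test that used the control window of the caller, were chosen after seeing the data.

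No paired analysis was possible because no column carries a sample, and leaving out samples was not run for the same reason. Depth is 1 limit: member peaks held a median of 44 fragments, and the ratio has no upper bound at the 20 of 48 with 0 control fragments at the site. No value shows how far mice of 1 group differ.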

Other observations

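Both family genes listed under older names belong to the retriever, a retromer-like complex that returns integrins and other receptors to the surface, and both rank high by coverage. In the authors' deposited table Vps35l had a pileup of 26.01 (92 fragments), a fold of 9.35 and a q of 7.84e-17 at its start (chromosome 7, 118740187 to 118740890), rank 50 of 6395 by q. Vps26c had a pileup of 26.29 (93 fragments), a fold of 3.96 and a q of 1.06e-06 (chromosome 16, 94526108 to 94526889). Both were kept in the exact test at the site (exact p = 2.4e-09 and 3.79e-06). With them, the smallest q of any Vps gene is that of Vps35l and no longer that of Vps37c. The third retriever subunit, Vps29, and the retriever adaptor Snx17 were not listed.

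Listed peaks that the file assigns to other genes also fell in or just before 7 family genes. They were the start peaks of Prelid1 at Rab24 (fold 4.88), 5430405H02Rik at Rab5if (4.08), Tonsl at Vps28 (4.76), Cnot7 at Vps37a (4.06), Rps18 at Vps52 (6.15), Zfp276 at Vps9d1 (4.7) and Gm9806 at Vps13a (3.29). Of these 7 genes, Vps13a alone has a listed peak of its own. The 1 kb before a gene was searched only where a RefSeq promoter sequence gave its strand, so 7 is a minimum.

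An E-box with GT before it and AC after it, the longer form known from lysosomal genes, was searched after the data were seen. It was in 7 of the 127 family windows (5.51%), of 6 genes, and in 0.419% of all 21263 windows. The genes were Rab5a and Vps16, whose windows lay under their own listed peak, and Rab21, Rab24, Vps26a and Vps33a, whose windows did not. Among family windows the share was 6.06% with a listed peak (2 of 33) and 4.55% without one (4 of 88). Both Vps26a windows overlap each other, the counts are small, and neither the difference between these shares nor a relation to the treatment was tested.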
